A study of Mus musculus with 8 samples.

Results

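Macrophages of the fetal heart were followed through 10 marker genes in the hearts of 4 Dio3+/+ and 4 Dio3-/- mouse fetuses. The genes were *Cx3cr1*, *Csf1r*, *Cd68*, *Lyve1*, *Mrc1*, *C1qa*, *C1qb*, *C1qc*, *Fcgr3* and *Lyz2*, chosen by name as known macrophage markers, and all 10 were found among the 26590 gene symbols of the deposited table, in 17 of its 51414 transcript rows. For each gene the most abundant row, by the average of the genotype means, is given unless another row is named. *Dio3* encodes the type 3 deiodinase, the enzyme that inactivates thyroid hormones, and Dio3-/- fetuses lack it in every tissue, so the comparison asks what an excess of thyroid hormone does to the heart. All fetuses were on the C57BL/6J background, none received a treatment, and each RNA sample came from the heart of 1 fetus. The age is uncertain, since the titles of all 8 samples give E13.5, the age field of Dio3-/- hearts 3 and 4 reads E18.5, and the study's text gives E13.5 in its results and E14.5 in its methods. If those 2 hearts were older, age and genotype cannot be told apart in the genotype means.

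Macrophages reach the heart early in development from the yolk sac and the fetal liver. They live between the muscle cells and under the epicardium, depend on signaling through CSF1R, clear dying cells, and are known for a role in the remodeling of coronary and lymphatic vessels. Cells of this lineage are recognized by the growth factor receptor CSF1R and the fractalkine receptor CX3CR1, by the lysosomal proteins CD68 and lysozyme, by receptors for uptake such as MRC1 and LYVE1, by the Fc receptor FCGR3, and by the 3 chains of complement component C1q, which tissue macrophages secrete. The markers differ in how strictly they belong to macrophages, since lymphatic endothelium also uses *Lyve1*, and neutrophils also use *Lyz2*.

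The table held genotype means in RPKM (a read level per length of transcript and per number of mapped reads) and coefficients of variation (CV, the SD divided by the mean over the 4 hearts of a genotype), and no value per heart. A range of 1 SD below to 1 SD above the mean is therefore given here in place of the value in each heart. *Dio3* itself averaged 0.35 RPKM (CV 1.23) in Dio3+/+ hearts and 0.13 RPKM (CV 0.76) in the Dio3-/- group, too low to check the genotype labels. The series describes the hearts as male, but *Xist*, which female cells transcribe to silence an X chromosome, averaged 35.64 and 39.97 RPKM, and the Y-linked *Eif2s3y* averaged 9.38 and 7.29 RPKM with a CV above 1 in each genotype. Genes of heart muscle were abundant in both genotypes, from 24.2 RPKM for *Ryr2* to 4778 RPKM for *Actc1* in Dio3+/+ hearts.

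Of the 10 macrophage markers, 1 differed between genotypes, the lysozyme gene *Lyz2*, which was higher in Dio3-/- hearts, and 9 did not pass the test. The 9 others had ratios of the Dio3-/- to the Dio3+/+ mean from 0.875 to 1.09 and a summed level of 51.83 RPKM in Dio3+/+ hearts and 50.43 RPKM in the Dio3-/- group. Across all genes, 2.29% passed the same test (limma's empirical Bayes test on log2(RPKM + 0.5) with Benjamini-Hochberg adjustment, threshold 0.05) by their highest row, 1.91% as higher and 0.382% as lower in Dio3-/- hearts. Over all 32703 transcript rows tested, the shares were 2.15%, 1.88% and 0.266%. The median log2 ratio (log2 fold change, Dio3-/- over Dio3+/+) of the 10 markers was −0.06, beside 0.04 for the highest rows of all 14657 genes tested. In whole hearts, a change in the number of macrophages and a change in RNA per macrophage cannot be told apart.

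**Figure D1:**
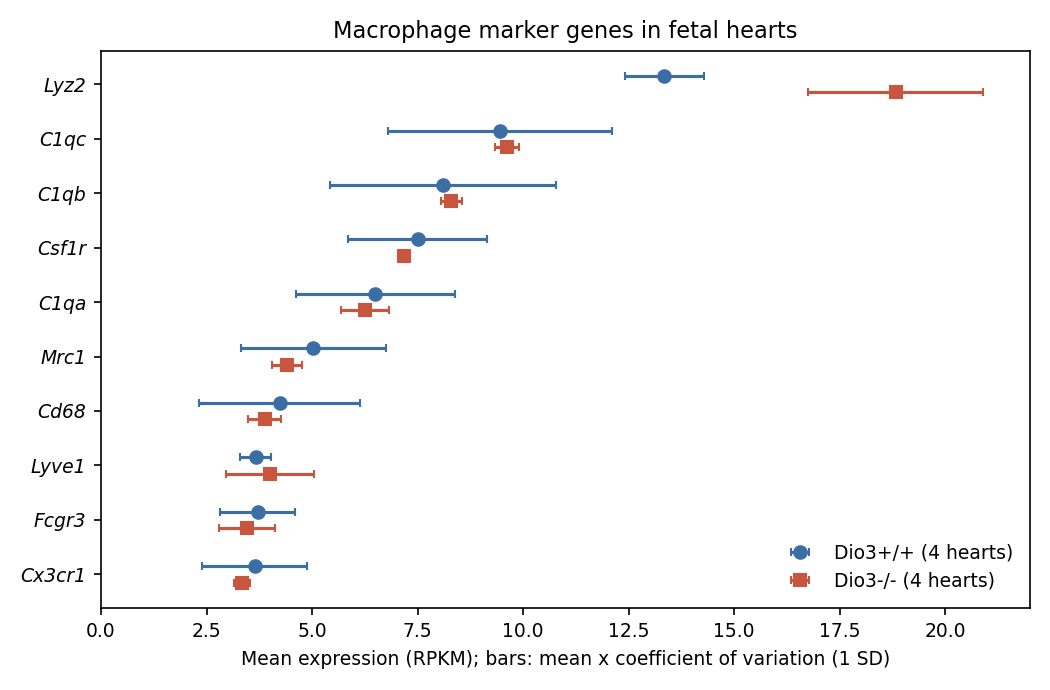
Mean expression of the 10 macrophage marker genes in RPKM (horizontal axis, from 0) in 4 Dio3+/+ hearts (circles) and 4 Dio3-/- hearts (squares), with bars of 1 SD on either side. Only *Lyz2* has bars that do not overlap, and the Dio3+/+ bars are wider than the Dio3-/- bars for 8 of the 10 genes.

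*Lyz2* encodes the lysozyme that macrophages and other myeloid cells store in lysosomes and secrete, which cuts bacterial cell walls. It was the most abundant marker in both genotypes. Its mean was 13.34 RPKM in Dio3+/+ hearts (CV 0.07) and 18.82 RPKM in Dio3-/- hearts (0.11). The range of 1 SD ended at 14.3 RPKM in Dio3+/+ hearts and began at 16.7 RPKM in Dio3-/- hearts, so the ranges of the genotypes did not overlap. Ranges apart in this way were found for 1 of the 10 markers and for 15.5% of all genes tested, 12.8% with the higher range in Dio3-/- hearts. The log2 ratio was 0.48 (SE 0.08, 95% confidence interval 0.30 to 0.67, adjusted *P* = 0.021 by limma), a ratio of means of 1.41. The second row of *Lyz2* averaged 10.27 and 14.43 RPKM, a log2 ratio of 0.47 (adjusted *P* = 0.014 by limma). Rows of one gene can share reads, so the second is not a separate measurement. *Lyz2* passed the threshold in 8 of 9 alternative settings and did not with Welch's test on the deposited means and CVs (adjusted *P* = 0.173). The study's own list of differentially expressed genes, which also rests on Welch's test, names neither *Lyz2* nor any other of the markers.

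The mouse has a second lysozyme gene, *Lyz1*, which lies beside *Lyz2* and is known as the form of the Paneth cells of the gut. *Lyz1* averaged 5.30 RPKM in Dio3+/+ (CV 0.11) and 7.49 RPKM in Dio3-/- hearts (0.12), a log2 ratio of 0.46 (SE 0.10, adjusted *P* = 0.047 by limma). It passed the threshold in 4 of 9 alternative settings, with adjusted *P* values from 0.037 to 0.179. The ratio of *Lyz2* to *Lyz1*, on the RPKM scale, was 2.52 in Dio3+/+ and 2.51 in Dio3-/- hearts. The 2 genes resemble each other so closely that reads can be hard to assign. In their GENCODE transcripts, 5.96% of the 75-base windows of *Lyz2*, the length of a read, occur without a mismatch in *Lyz1*, and 53.9% occur there with up to 3 mismatches. The authors kept only reads that mapped to 1 place, and how much of one gene's signal came from the other was not tested. The nearest expressed genes on either side in the table, *Yeats4* and *Cpsf6*, had log2 ratios of 0.14 and 0.08 and did not pass the test (adjusted *P* = 0.314 and 0.612 by limma).

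The sequences upstream of both lysozyme genes are shown because both genes passed the test in the same direction. They are the 250 bases before the start that RefSeq gives, from GRCm38.p6, chr10:117282273-117282522 for *Lyz2* and chr10:117292869-117293118 for *Lyz1*, both on the minus strand. The build behind the expression table is not given in the sources used here. Capitals mark ACTTCCT, the reverse complement of AGGAAGT, a motif of the ETS family of factors to which the macrophage factor PU.1 (*Spi1*) belongs.
Lyz2: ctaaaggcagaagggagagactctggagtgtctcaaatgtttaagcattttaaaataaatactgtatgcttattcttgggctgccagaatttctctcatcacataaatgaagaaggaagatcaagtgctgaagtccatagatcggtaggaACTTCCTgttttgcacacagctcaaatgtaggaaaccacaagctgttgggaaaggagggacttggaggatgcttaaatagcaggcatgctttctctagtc
Lyz1: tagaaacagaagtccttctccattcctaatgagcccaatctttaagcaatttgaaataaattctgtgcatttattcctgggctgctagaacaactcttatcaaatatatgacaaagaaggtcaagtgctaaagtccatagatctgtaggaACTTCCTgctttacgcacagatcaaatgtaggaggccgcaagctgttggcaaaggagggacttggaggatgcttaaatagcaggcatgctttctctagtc
Compared base by base without gaps, 92 of the 100 bases next to the start were identical, and 60 of the 150 bases before them. The motif began 100 bases before the start in both.

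The same motif was searched on both strands upstream of every gene in the RefSeq table and was present in 7.8% of 27025 genes. The table held upstream sequence for 7 of the 10 markers, and 4 of the 7 had the motif (*Lyz2*, *C1qb*, *C1qc* and *Mrc1*). A match is only a run of letters, and no binding was measured in these hearts. The sequences of *C1qb* and *C1qc* are shown as a pair picked after their values were seen, and both genes are among the 4 with the motif. They lie at chr4:136886201-136886450 for *C1qb* and chr4:136892915-136893164 for *C1qc*, again on the minus strand of GRCm38.p6, with the motif in capitals.
C1qb: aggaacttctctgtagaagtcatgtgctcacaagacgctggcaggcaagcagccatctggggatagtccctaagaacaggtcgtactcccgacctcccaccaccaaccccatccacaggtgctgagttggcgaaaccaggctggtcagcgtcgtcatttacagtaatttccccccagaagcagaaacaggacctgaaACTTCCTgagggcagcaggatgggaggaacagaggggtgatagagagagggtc
C1qc: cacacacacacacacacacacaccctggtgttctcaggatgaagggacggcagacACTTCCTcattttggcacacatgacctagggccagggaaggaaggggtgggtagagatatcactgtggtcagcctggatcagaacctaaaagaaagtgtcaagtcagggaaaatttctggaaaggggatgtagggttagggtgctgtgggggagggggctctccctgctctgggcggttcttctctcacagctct
The motif began 53 bases before the start of *C1qb* and 195 bases before that of *C1qc*.

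C1q, the first component of the classical complement pathway, is built from equal numbers of the A, B and C chains, and its genes lie side by side. *C1qa* averaged 6.50 RPKM in Dio3+/+ (CV 0.29) and 6.25 RPKM in Dio3-/- hearts (0.09). *C1qb* averaged 8.10 RPKM (0.33) and 8.30 RPKM (0.03). *C1qc* averaged 9.45 RPKM (0.28) and 9.62 RPKM (0.03). The ranges of 1 SD in Dio3-/- hearts lay wholly inside those in Dio3+/+ hearts for each chain. The log2 ratios were −0.05 for *C1qa* (95% confidence interval −0.43 to 0.32), 0.03 for *C1qb* (−0.38 to 0.45) and 0.02 for *C1qc* (−0.33 to 0.38), with adjusted *P* values from 0.903 to 0.956 by limma. The level of *C1qc* was 1.17 times that of *C1qb* in Dio3+/+ and 1.16 times in Dio3-/- hearts, and 1.45 and 1.54 times that of *C1qa*.

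The receptors for growth and for position were next. *Csf1r*, the receptor that macrophages need to survive, averaged 7.50 RPKM in Dio3+/+ (CV 0.22) and 7.17 RPKM in Dio3-/- hearts (0.01), a log2 ratio of −0.06 (95% confidence interval −0.34 to 0.22, adjusted *P* = 0.846 by limma). A CV of 0.01 means that the 4 Dio3-/- hearts had nearly equal levels. The gene had 4 rows, with Dio3+/+ means from 4.91 to 7.50 RPKM, and none passed the test. *Cx3cr1*, the receptor for fractalkine, averaged 3.64 RPKM (0.34) and 3.34 RPKM (0.06), a log2 ratio of −0.11 (95% confidence interval −0.52 to 0.30, adjusted *P* = 0.802 by limma). For both receptors the means differed by less than 1 SD of the Dio3+/+ hearts.

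*Mrc1*, the mannose receptor of resident macrophages, averaged 5.03 RPKM in Dio3+/+ (CV 0.34) and 4.40 RPKM in Dio3-/- hearts (0.08). Its log2 ratio was −0.17 (95% confidence interval −0.60 to 0.25, adjusted *P* = 0.675 by limma). *Cd68*, a glycoprotein of the lysosome membrane, had the widest interval of the 10 genes. Its means were 4.23 RPKM (0.45) and 3.88 RPKM (0.10), with a log2 ratio of −0.11 (95% confidence interval −0.65 to 0.43, adjusted *P* = 0.854 by limma), and its second row gave −0.09. *Fcgr3*, a receptor that activates macrophages when it binds IgG, averaged 3.71 RPKM (0.24) and 3.46 RPKM (0.19), with a log2 ratio of −0.09 (95% confidence interval −0.45 to 0.28, adjusted *P* = 0.823 by limma). Its 3 rows differed little, from 3.59 to 3.71 RPKM in Dio3+/+ hearts, and 7.38% of the 75-base windows of its GENCODE transcript occur unchanged in *Fcgr2b*. With up to 3 mismatches allowed, 24.5% of the windows occur there.

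*Lyve1*, a receptor for hyaluronan, averaged 3.67 RPKM in Dio3+/+ (CV 0.10) and 4.01 RPKM in Dio3-/- hearts (0.26), a log2 ratio of 0.11 (95% confidence interval −0.23 to 0.45, adjusted *P* = 0.744 by limma). It was the marker with the widest spread between Dio3-/- hearts, where the other 9 had CVs up to 0.19. Genes of lymphatic endothelium, which also carries LYVE1, were measured in the same hearts. *Ccl21a*, the chemokine of lymphatic vessels, averaged 2.44 RPKM (0.52) and 1.71 RPKM (0.84), and *Reln* had 1.81 RPKM (0.17) and 1.40 RPKM (0.38). *Prox1*, which heart muscle also expresses, had 23.33 RPKM (0.13) and 24.76 RPKM (0.04). None of the 6 genes on the lymphatic list passed the test, with adjusted *P* values from 0.357 to 0.744 by limma. How much of the *Lyve1* signal came from macrophages and how much from lymphatic cells was not tested.

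**Figure D2:**
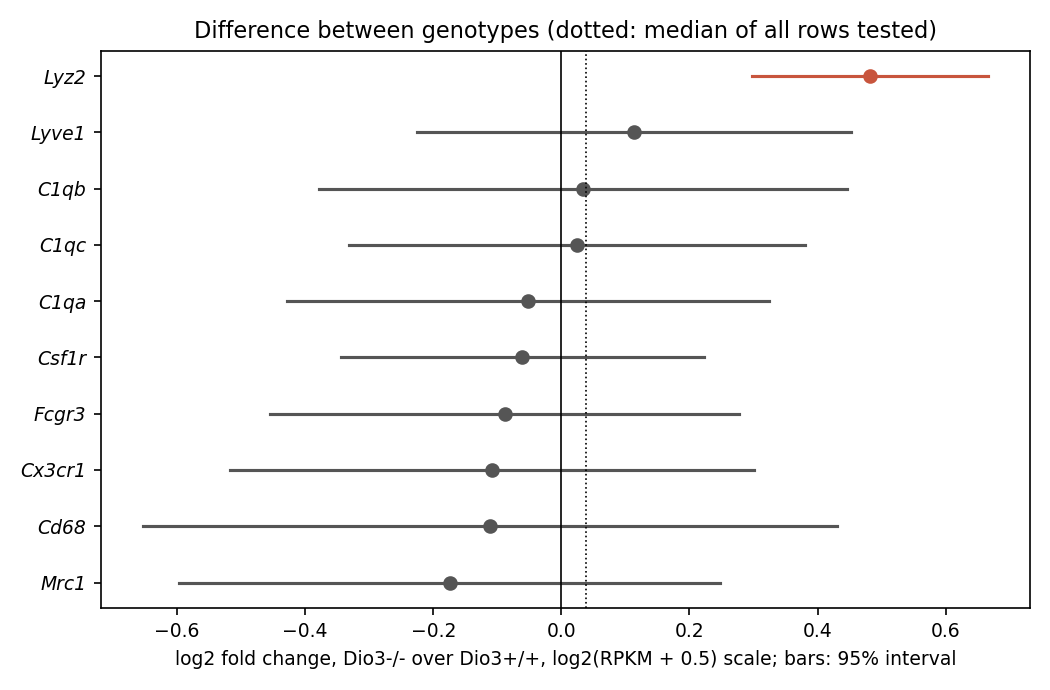
Log2 fold change of each macrophage marker gene, Dio3-/- over Dio3+/+ hearts, on the log2(RPKM + 0.5) scale (horizontal axis), with 95% confidence intervals from limma over 4 and 4 hearts. The interval of *Lyz2* (0.30 to 0.67) lies above 0 and the intervals of the other 9 genes include 0, and the dotted line is the median of all rows tested (0.04).

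For the 9 markers other than *Lyz2*, the adjusted *P* values ran from 0.675 to 0.956 by limma and none had an unadjusted *P* value under 0.05. Their log2 ratios ran from −0.17 to 0.11, with 6 below 0 and 3 above. The absence of a call does not show equal levels. The confidence intervals together reached from −0.65 to 0.45 on the log2 scale.

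The spread between hearts was wider in Dio3+/+ than in Dio3-/- hearts for 8 of the 10 markers and for 65.4% of all genes tested, a difference that was not tested. In Dio3+/+ hearts, 8 of the 10 markers (all except *Lyve1* and *Lyz2*) had a CV above 0.2, from 0.22 for *Csf1r* to 0.45 for *Cd68*. In Dio3-/- hearts 1 of the 10 did, *Lyve1*. Among the 6592 genes tested with means within the range of the markers (3.49 to 16.1 RPKM over both genotypes), 8.89% had a CV above 0.2 in Dio3+/+ hearts and 2.38% in Dio3-/- hearts. The median was 0.285 in Dio3+/+ and 0.085 in Dio3-/- hearts for the markers, against 0.09 and 0.06 for these 6592 genes. For 7 of the 10 markers the coefficient was above 0.2 in Dio3+/+ hearts and at most 0.1 in Dio3-/- hearts, a combination found in 5.02% of the same genes. These shares are descriptions, since the markers share the same 8 hearts and are not independent, and whether 1 Dio3+/+ heart stood apart cannot be read from a mean and a CV.

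**Figure D3:**
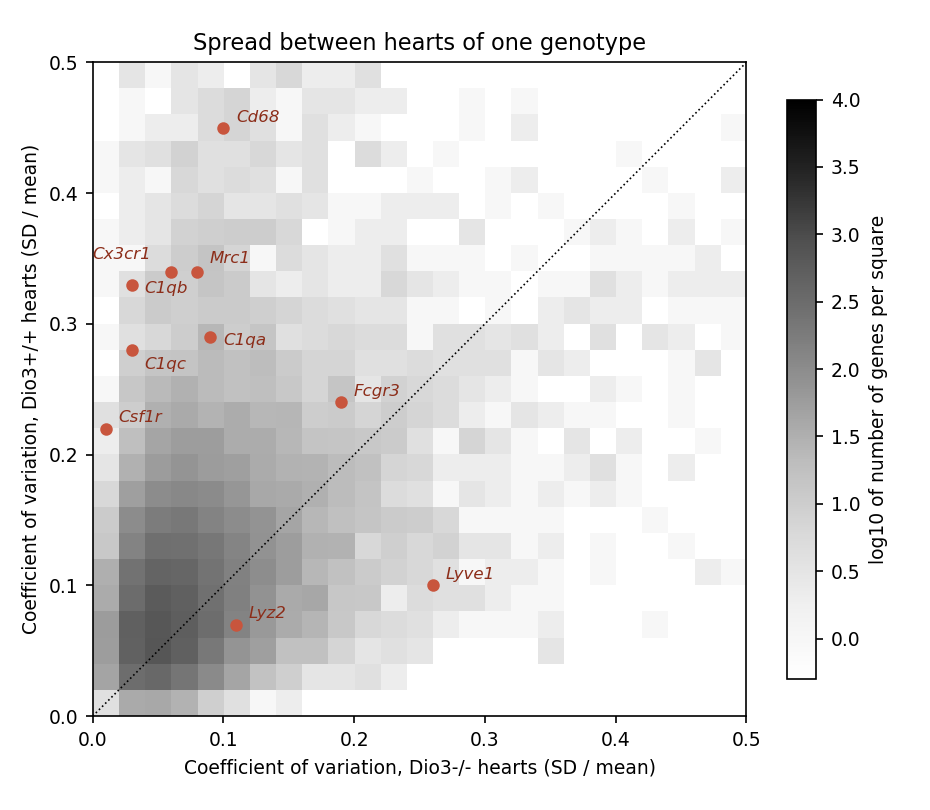
Coefficient of variation (SD divided by mean, no unit) between the 4 Dio3-/- hearts (horizontal) and between the 4 Dio3+/+ hearts (vertical) for the 10 macrophage marker genes (red points) and for all genes tested (gray squares, shaded by the log10 of the number of genes, genes above 0.5 not drawn). The points above the dotted line of equal spread are the 8 markers other than *Lyve1* and *Lyz2*.

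The order of the levels was the same in both genotypes for the 6 most abundant markers, on the RPKM scale. *Lyz2* was followed by *C1qc*, *C1qb*, *Csf1r*, *C1qa* and *Mrc1*. In Dio3-/- hearts the ranges of 1 SD of each of these neighbours were apart, from *Lyz2* down to *Mrc1*. In Dio3+/+ hearts only *Lyz2* and *C1qc* were apart (12.4 RPKM at the lower end of *Lyz2* and 12.1 RPKM at the upper end of *C1qc*). The 4 least abundant markers, *Cd68*, *Fcgr3*, *Lyve1* and *Cx3cr1*, had means between 3.34 and 4.23 RPKM, and neighbours among them did not differ beyond their spread in either genotype.

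No gene on the list of other macrophage genes passed the test. Of 25 further macrophage and myeloid genes, 16 reached the limit for testing (1 RPKM in either genotype), and 0 passed (limma, lowest adjusted *P* = 0.103). Their median log2 ratio was −0.04. Across all genes tested 2.29% passed, so a list this short can hold no call without standing apart from other genes. *Lgmn*, a lysosomal protease, averaged 40.98 and 40.35 RPKM. *Laptm5*, a lysosomal protein of blood cells, averaged 14.32 RPKM (CV 0.15) and 11.73 RPKM (0.07), a log2 ratio of −0.28 (adjusted *P* = 0.171 by limma). *Tyrobp*, an adaptor of activating receptors, had 4.25 RPKM (0.41) and 4.15 RPKM (0.13). The spread was wider in Dio3+/+ hearts for 14 of the 16 genes, beside 65.4% of all genes tested. *Emr1*, the gene of the F4/80 antigen, had 2.20 RPKM (0.32) and 1.88 RPKM (0.07).

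Genes of resident macrophages of fetal origin gave the same picture, with 0 of 12 tested genes called (limma, lowest adjusted *P* = 0.1003) and a median log2 ratio of −0.07. The most abundant, *Apoe*, which carries lipids, averaged 86.53 and 94.76 RPKM. *Folr2*, a folate receptor of these cells, had 1.24 RPKM (CV 0.12) and 1.18 RPKM (0.16). *Timd4*, a receptor for dying cells, was below the limit for testing, with 0.24 and 0.29 RPKM, and so was *Cd163*, with 0.05 and 0.03 RPKM. Some genes of this list that cells other than macrophages express had the same uneven spread, such as *Igf1* (0.49 in Dio3+/+ and 0.06 in Dio3-/- hearts) and *Dab2* (0.30 and 0.04). Of 10 monocyte genes, only *Nr4a1* was above the limit for testing, with a log2 ratio of 0.08, and *Ccr2*, the receptor that brings monocytes into tissue, had 0.37 and 0.28 RPKM.

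Among 12 transcription factors of the lineage, 9 were tested. By their highest row 0 passed (limma, lowest adjusted *P* = 0.129), beside 2.29% of all genes tested. The gene of PU.1, listed under its older symbol *Sfpi1*, averaged 1.72 RPKM (CV 0.23) and 1.92 RPKM (0.16), a log2 ratio of 0.12 (adjusted *P* = 0.697 by limma). *Irf8* averaged 1.71 RPKM in either genotype. *Runx1*, a factor of blood formation, had 3.44 and 0.90 RPKM, with a CV of 1.26 in Dio3+/+ hearts, a spread wider than the difference between the genotypes.

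The partners of the 2 receptors were measured as well. *Csf1*, the ligand of CSF1R, averaged 5.58 RPKM (CV 0.11) in Dio3+/+ hearts and 5.67 RPKM (0.07) in the Dio3-/- group, and *Il34*, its other ligand, had 0.14 and 0.12 RPKM. The level of *Csf1r* was 1.34 times that of *Csf1* in Dio3+/+ and 1.26 times in Dio3-/- hearts. *Cx3cl1*, which encodes fractalkine, averaged 4.31 RPKM (0.10) and 5.54 RPKM (0.07), a log2 ratio of 0.33 that did not pass the test (adjusted *P* = 0.065 by limma). Of the 9 tested genes on this list that are not markers themselves, 0 passed, beside 2.29% of all genes tested.

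Components of the classical complement pathway that act after C1q were low. The proteases that C1q activates were close to 0, with 0.16 and 0.24 RPKM for *C1ra* and 0.09 and 0.14 RPKM for *C1s*, and so were *C2* (0.16 and 0.18 RPKM) and *C4b* (0.09 and 0.07 RPKM). *C3ar1*, the receptor for a fragment of C3, averaged 2.76 RPKM (CV 0.35) and 2.68 RPKM (0.06), the same uneven spread as the C1q genes. *C3* itself had 0.62 RPKM (0.42) and 1.50 RPKM (0.80), a log2 ratio of 0.84 that did not pass the test (adjusted *P* = 0.274 by limma). Of the 12 complement genes tested besides C1q, 0 passed, beside 2.29% of all genes tested, and their median log2 ratio was 0.11. *Cd59a*, a regulator on the surface of many cells, had 12.51 and 14.89 RPKM.

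Among Fc receptors, *Fcgr3* was the only tested receptor for IgG of the classical family. *Fcgr1*, *Fcgr2b* and *Fcgr4* had means below 1 RPKM in both genotypes, from 0.19 to 0.69 RPKM. The chain that FCGR3 needs to reach the cell surface, *Fcer1g*, averaged 8.77 RPKM (CV 0.18) in Dio3+/+ hearts and 6.30 RPKM (0.14) in the Dio3-/- group, a log2 ratio of −0.45 (adjusted *P* = 0.103 by limma). The range of 1 SD of *Fcer1g* did not overlap between genotypes, but the difference did not pass the test. *Fcgrt*, which carries IgG between mother and fetus, had 7.39 and 7.83 RPKM.

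Lysosomal genes, a list that also holds *Lyz1* and the markers *Cd68* and *Lyz2*, had a smaller spread than the macrophage markers. Across all genes tested, 2.29% passed the test, 1.91% as higher in Dio3-/- hearts. Of 18 lysosomal genes tested besides *Cd68* and *Lyz2*, 2 passed, both with the higher level in Dio3-/- hearts. They were *Lyz1* and *Ctsl*, a cysteine protease, with means of 62.99 RPKM (CV 0.05) and 74.35 RPKM (0.04), a log2 ratio of 0.24 (adjusted *P* = 0.049 by limma, passed in 4 of 9 alternatives). The study's own list of differentially expressed genes names *Ctsl*, with the higher level in Dio3-/- hearts, and does not name *Lyz1*. *Lamp1*, a main protein of the lysosome membrane, had 125.4 and 125.3 RPKM, and *Ctsd*, an aspartic protease, had 141.0 and 137.7 RPKM. The median CV over the tested genes of the list was 0.05 in both genotypes. Of 13 tested receptors and bridging proteins for the uptake of dying cells and matrix, *Mrc1* and *Lyve1* aside, 0 passed (limma, lowest adjusted *P* = 0.152), and *Stab1*, a scavenger receptor, had 14.11 and 14.56 RPKM.

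**Figure D4:**
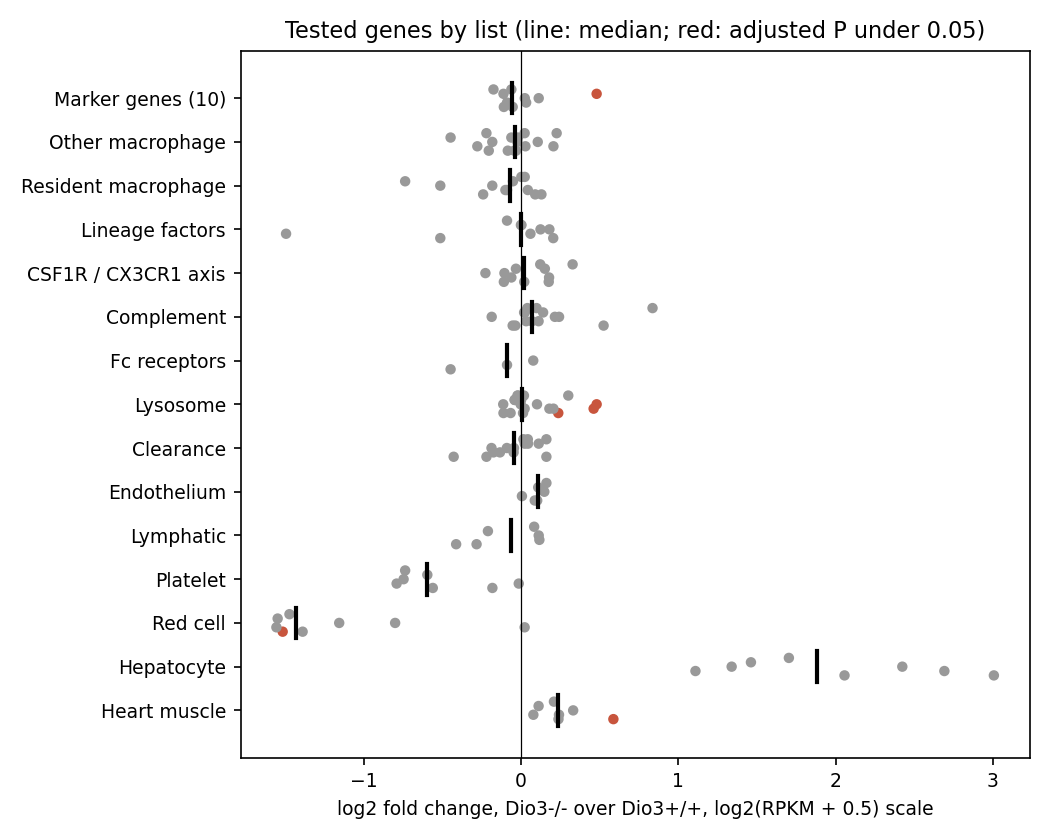
Log2 fold change, Dio3-/- over Dio3+/+ hearts, on the log2(RPKM + 0.5) scale (horizontal axis) for the tested genes of 15 gene lists (rows), each point a gene by its highest row, with the median of the list as a line and genes with an adjusted *P* value under 0.05 in red. The lists of other macrophage genes and of resident macrophages have medians of −0.04 and −0.07, the red cell list lies lower (−1.43) and the hepatocyte list higher (1.88).

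Other cells that could carry marker transcripts were examined with lists of their genes. Neutrophil genes, relevant because neutrophils also express *Lyz2*, were near the limit for testing or below it in both genotypes. All 9 had means from 0.05 to 1.08 RPKM, with a summed level of 3.34 RPKM in Dio3+/+ hearts and 4.46 RPKM in the Dio3-/- group, and *Elane* was at 0.05 and 0.08 RPKM. Liver transcripts were higher on average in Dio3-/- hearts, from a summed level of 22.9 to 122.6 RPKM over 8 hepatocyte genes, none of which passed the test (limma, lowest adjusted *P* = 0.121), with a median CV of 0.99 and 1.11. Of 8 genes of liver macrophages, 6 were below the limit for testing in both genotypes. *Slc40a1* (5.07 and 5.52 RPKM) and *Hmox1* (43.80 and 20.38 RPKM, adjusted *P* = 0.048 by limma), which other cells also express, were the 2 above it. Of the 6, *Clec4f* had 0.01 and 0.02 RPKM, *Cd5l* had 0.08 and 0.10 RPKM, *Vsig4* had 0.02 and 0.08 RPKM, and *Marco* had 0.07 and 0.17 RPKM. In Dio3-/- hearts the CV was 0.11 for *Lyz2* and 0.68 or more for the 8 hepatocyte genes. A CV does not show which cells a transcript came from. Red cell genes were lower on average in Dio3-/- hearts, with a median log2 ratio of −1.43. Of the 8, 1 was called (*Hbb-bh1*, adjusted *P* = 0.047 by limma, passed in 4 of 9 alternatives), beside 2.29% of all genes tested. Platelet genes had a median log2 ratio of −0.59 with 0 of 7 called (limma, lowest adjusted *P* = 0.075). The part of blood and liver RNA in the result for *Lyz2* was not tested. Blood endothelium had a median log2 ratio of 0.11 with 0 of 6 tested genes called. Heart muscle had a median of 0.24 with 1 of 7 called (*Ryr2*, the calcium release channel, log2 ratio 0.59, adjusted *P* = 0.023 by limma), again beside 2.29% of all genes tested.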

How the data were processed

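Total RNA was depleted of ribosomal RNA, and single-end reads were sequenced from 4 Dio3+/+ and 4 Dio3-/- hearts. Per the study's methods and the submitters' processing notes, reads were checked with FastQC and aligned with Novoalign (version 2.08), uniquely mapping reads were kept, and each sample was scaled linearly to the smallest one. The genome build is not given in the sources used here, and rows carry UCSC known-gene identifiers. The authors deposited a mean per genotype, read here as RPKM because the methods filter in that unit, and a coefficient of variation, a ratio of SD to mean. Columns with the authors' own fold changes and *q* values were not used. The study's methods state the aligned reads for the series as a whole, but the table holds no total per sample, so no counting interval was computed.

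The test had been planned for values per heart. On these summaries, log2(mean + 0.5) was compared between genotypes, with an SD derived from the coefficient of variation, by limma's empirical Bayes test (limma 3.58.1 under R 4.3.3) with a trend of the variance on the mean, 6 residual degrees of freedom and Benjamini-Hochberg adjustment over the 32703 rows above 1 RPKM in at least 1 genotype. Log2 fold changes on this scale understate the change of low genes, and the log of a mean stands in for the mean of logs. All 10 markers passed the filter. The markers and lists were chosen with earlier results of these data known. Genes were named by list membership (markers, called genes, up to 4 of highest mean, genes near 0). Others, such as *Cx3cl1*, *C3*, *Pf4*, *Runx1*, *Tyrobp* and the C1q pair printed as sequence, were named after their values were seen. Of the lists, *Tfeb* and *Hba-a1* were not found under the symbols used. The values of 1 gene on the complement list are not reported here. Upstream sequences came from the RefSeq table (GRCm38.p6) and transcripts from GENCODE M21. Alternatives were other pseudocounts, filters, trend, scaling, rounding, 1 row per gene and Welch's test. Python (3.11.15), pandas (2.3.3) and numpy (2.4.6) made the summaries.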

Additional observations from a re-analysis of the deposited data

How the results depend on the processing

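*Lyz2* was higher in Dio3-/- hearts in all 9 alternatives, with log2 fold changes from 0.44 to 0.49, and passed the threshold in 8 of them. With Welch's test on the deposited RPKM summaries its adjusted *P* value was 0.173, 0 of the 10 markers passed, and the number of genes called over all rows was 32 in place of 379. That number was 221 with no filter on low values, 197 after centring on the median log2 ratio of all genes (a shift of 0.04) and 206 with coefficients of variation raised by their largest rounding error (0.005), and rose to 429 among rows with a mean above 5 RPKM. The other 9 markers were not called in any alternative that tested them. Centring turned the sign of *C1qb* (−0.0047) and *C1qc* (−0.0134), and another row of *Csf1r* gave 0.0168, so none of these has a direction. The 2 calls among 84 related genes outside the markers (*Lyz1* and *Ctsl*) were close to the threshold. There were 0 with no filter, without the mean-variance trend, with centring, with raised coefficients of variation and with Welch's test. The 3 calls among 45 markers of other cells (*Hmox1*, *Hbb-bh1* and *Ryr2*) became 1 with no filter, without the trend, with centring and with raised coefficients of variation, and 0 with Welch's test, while 4 of 32 were called among genes with a mean above 5 RPKM. No paired analysis was possible because the table holds no values for single hearts, and for the same reason no heart could be left out.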

Other observations

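*Hmox1*, the enzyme that breaks down heme in macrophages that clear red cells and in other stressed cells, averaged 43.80 RPKM in Dio3+/+ hearts (CV 0.26) and 20.38 RPKM in Dio3-/- hearts (0.31), a log2 ratio of −1.09 (adjusted *P* = 0.048 by limma, passed in 4 of 9 alternatives, from 0.036 to 0.217). The globin gene *Hbb-b1* averaged 9843 and 3550 RPKM and did not pass the test (adjusted *P* = 0.082 by limma). *Slc40a1*, which exports the iron that is set free, averaged 5.07 and 5.52 RPKM and did not pass the test. *Spic*, a factor of macrophages that recycle red cells, was at 0.03 and 0.02 RPKM.

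*Irf5*, a factor of inflammatory macrophages that other cells also express, was singled out after its values were seen. Its highest row averaged 7.43 and 8.49 RPKM and did not pass the test (adjusted *P* = 0.129 by limma). A lower row averaged 2.92 RPKM (CV 0.08) and 4.07 RPKM (0.03), with a log2 ratio of 0.42 (adjusted *P* = 0.019 by limma), and another had 2.70 and 3.77 RPKM (adjusted *P* = 0.023 by limma). Rows of one gene can share reads. The study's own list of differentially expressed genes names *Irf5*, with the higher level in Dio3-/- hearts.

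Among other blood cells, the mast cell gene *Cpa3* averaged 1.12 RPKM (CV 0.80) and 0.33 RPKM (0.31), and 0 of 2 tested mast cell genes passed. All 9 lymphocyte genes had means of at most 0.32 RPKM, with summed levels of 0.56 and 0.63 RPKM.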
